A study of Mus musculus with 3 samples.

Results

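Tcfl5, Pou4f1, Mrap2, Stac2, Nxnl2, Emilin2, Aqp5 and Ppm1j are 8 mouse genes best known from tissues other than the embryonic cerebrum, and each gave a several-fold higher signal in cerebral cells treated with valproate. They were chosen by their measured values: a low signal on the DMSO array and a several-fold higher one on the valproate array. The difference between those arrays is therefore a description of how they were picked. The 8 genes were found by name among 22328 genes on the array, and 11 probes carry their names. Each of the 11 probes is printed as 1 spot.

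Cerebral cells of C57BL6/J embryos (embryonic day 18) were grown in B27-supplemented neurobasal medium, which carries no serum and favours neurons, and were treated on day 10 in vitro for 24 h. The valproate sample received 1 mM valproate with 0.1% DMSO, the lamotrigine sample 100 µM lamotrigine with 0.1% DMSO, and the control 0.1% DMSO alone. The solvent was thus common to all 3. The labels do not say whether a sample pools several cultures. Valproate is an antiepileptic drug that also inhibits class I histone deacetylases (HDACs), whereas lamotrigine is an antiepileptic drug that blocks sodium channels. The submitters describe the valproate and DMSO arrays as part of a study on HDAC inhibition and the lamotrigine array as not used in it. Each treatment has 1 array, so no difference below has a replicate check, no test between treatments was possible, and errors are technical only.

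HDACs remove acetyl groups from histone tails. They act in complexes with corepressors such as Sin3a and Rcor1, which DNA-binding repressors such as Rest bring to genes of other cell lineages. Several of the 8 genes have a known place in such other lineages. Tcfl5 encodes a basic helix-loop-helix (bHLH) transcription factor of spermatocytes, and Ppm1j a protein phosphatase of the PP2C family first described in testicular germ cells. Pou4f1 (Brn3a) encodes a POU-domain transcription factor of sensory ganglia, habenula and retinal ganglion cells. Stac2 encodes an adaptor protein that binds L-type calcium channels and is found in sensory and central neurons. Nxnl2 encodes a thioredoxin-like factor of photoreceptors, and Aqp5 the water channel of salivary, lacrimal and lung epithelium. Mrap2 encodes an accessory protein of melanocortin receptors with roles in the hypothalamus and adrenal, and Emilin2 an extracellular glycoprotein of elastic tissue. The arrays hold no tissue other than the cultured cerebral cells, so this distribution is background and was not measured.

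Probe positions are those of the files, on the mm9 build. All probes are 60 bases long, and the files do not say whether a probe lies in coding sequence or in a UTR. The Tcfl5 probe A_52_P299713 is assigned to chr2:180357383-180369981 on the minus strand, a span of 12599 bases, so its 60 bases come from spliced exons on either side of at least 1 intron. The Ppm1j probe A_51_P399175 lies at chr3:104588336-104588395 on the plus strand. Aqp5 has 2 probes on the plus strand, A_55_P1990121 at chr15:99425138-99425197 and, upstream of it, A_55_P2071236 at chr15:99424655-99424714. The probe sequences below are shown because these are the transcript stretches on which the differences of Tcfl5 and Ppm1j, and the disagreement between the probes of Aqp5, were read. Each of the 3 is free of stop codons in 2 of its forward reading frames.
Tcfl5 A_52_P299713: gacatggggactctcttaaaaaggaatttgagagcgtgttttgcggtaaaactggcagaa
Ppm1j A_51_P399175: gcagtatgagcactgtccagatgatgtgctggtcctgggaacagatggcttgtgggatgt
Aqp5 A_55_P2071236: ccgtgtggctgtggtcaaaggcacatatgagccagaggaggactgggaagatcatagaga

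Mrap2 has 3 probes on the plus strand of chromosome 9. From 5′ to 3′ along the gene they are A_55_P2143296 (chr9:87077587-87077646), A_55_P2105140 (chr9:87078063-87078122) and A_55_P2105135 (chr9:87078820-87078879). The first 30 bases of each are shown because the 3 probes gave different detection.
Mrap2 A_55_P2143296: atgatctcctgatttcggaagcacccgttc
Mrap2 A_55_P2105140: tgtaacaagttgctttacctctctggactg
Mrap2 A_55_P2105135: ctttacgaatttgttcaccctttgtcttgc
The other 4 genes have 1 probe each. These are A_55_P2367250 for Pou4f1 at chr14:104862743-104862802 (minus strand), A_55_P2099363 for Stac2 at chr11:97897939-97897998 (minus strand), A_52_P605556 for Nxnl2 at chr13:51270403-51270462 (plus strand) and A_52_P527800 for Emilin2 at chr17:71601638-71601697 (minus strand). The polyadenylation signal AATAAA stands in the Pou4f1 probe and in Mrap2 probe A_55_P2105135, and in 10.1% of all probes on the array.

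Levels are given as scaled signal, with 100 set at the 75th percentile of each array's spots, controls left out. That percentile was a processed signal of 477 on the valproate, 372 on the DMSO and 387 on the lamotrigine array. A probe counts as detected where the scanner software marked it well above background, which was so for 49.6% to 52.9% of spots per array. The lowest detected signal on an array, its detection floor, was a scaled signal of 3.90 (valproate), 5.30 (DMSO) and 4.64 (lamotrigine). Where a gene was detected on only 1 of the arrays compared, the dimmer side was set to that floor, or to its own signal where that was above the floor, and such a difference is called a bound. The technical spread was taken from 399 probes that each array carries 10 times. Their median SD on the log2 scale was 0.17 to 0.19 below a scaled signal of 25, 0.079 to 0.086 from 25 to 100 and 0.053 to 0.063 from 100 to 400. No level is compared between probes, because probes differ in how strongly they bind.

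All 8 genes were at least 2-fold brighter on the valproate than on the DMSO array, 7 as a measured difference and Ppm1j as a bound. Among all genes the same was true of 302 of 14346 genes detected on both arrays (2.11%) and of 109 of 749 genes with a bound (14.6%). Since that contrast chose the 8 genes, nothing is read from their count. The 7 measured log2 differences ran from 2.30 (Stac2) to 3.43 (Tcfl5), with a median of 2.33 and a median of 2.33 also with the bound of Ppm1j included. Over all genes detected on both arrays the median was -0.08 and the SD 0.42. The members were not taken down a complete ranking: 14 genes reached the difference of Stac2, and the other 7 of these were H2-Ab1 (3.46), H2-M3 (2.81), LOC547349 (2.72), Rab37 (2.68), Slc39a8 (2.44), AA467197 (2.43) and Mapk13 (2.35). Just below Stac2 came Card10, Klk8 and Slc16a3, each with 2.29.

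**Figure D1:**
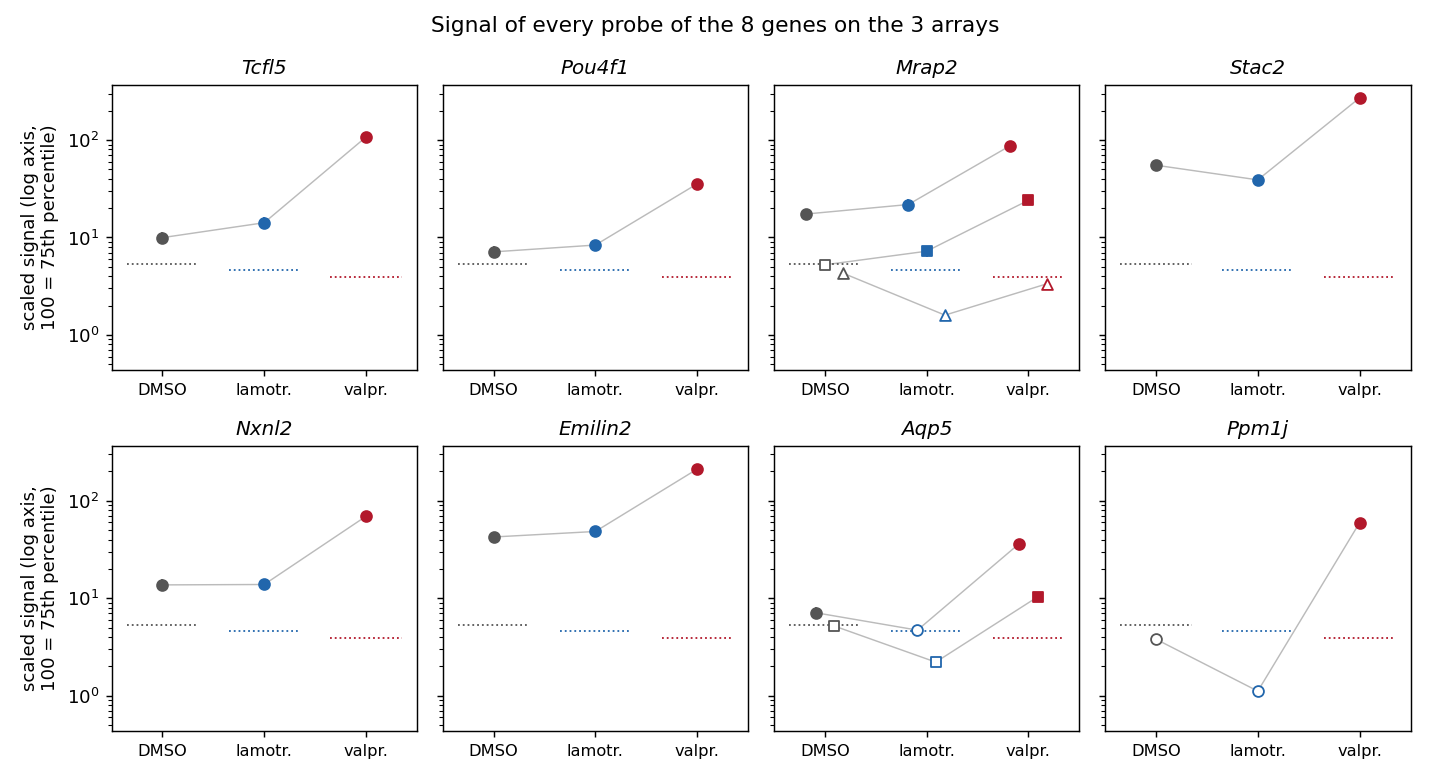
Scaled signal (log axis, 100 = 75th percentile of an array) of every probe of the 8 genes on the DMSO, lamotrigine and valproate arrays. Circles, squares and triangles are different probes, filled where well above background and open where not; dotted lines are the detection floors, and technical SD bars are mostly smaller than the symbols. Every gene has a filled valproate point above its other points, and 1 Mrap2 probe is open on all arrays.

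Of the genes known from the germ line, Tcfl5 had a scaled signal of 107.4 with valproate, 9.97 with DMSO and 14.2 with lamotrigine. It was detected on all 3 arrays, and the valproate signal stood far above the other 2. The valproate to DMSO log2 difference was 3.43 (technical SD 0.19), a 10.8-fold difference and rank 2 of 14346 genes. Lamotrigine differed from DMSO by 0.51 (technical SD 0.26), rank 269.

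Ppm1j had a scaled signal of 59.6 with valproate, 3.80 with DMSO and 1.11 with lamotrigine. It was the only one of the 8 genes with no probe above background on the DMSO array, and it was not above background on the lamotrigine array either. Against the DMSO floor the valproate signal was at least 11.2-fold higher (log2 bound 3.49), the highest of the 749 bounds. Against lamotrigine it was at least 12.8-fold higher (log2 bound 3.68). The software's error of the spot was 10.1% with valproate and 34.2% with DMSO, and as large as the signal itself with lamotrigine (100.4%).

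Of the genes known from neurons, Pou4f1 had a scaled signal of 35.5 with valproate, 7.12 with DMSO and 8.37 with lamotrigine. The DMSO and lamotrigine signals lay just above the detection floors, and the valproate signal was 4.99-fold the DMSO signal (log2 2.32, technical SD 0.20, rank 12). Lamotrigine minus DMSO was 0.23, within the technical SD of 0.26. Among 308 negative-control spots of the DMSO array, the 95th percentile was a scaled signal of 1.49 and the highest 8.59. That highest control spot was brighter than Pou4f1 and the detected Aqp5 probe on the same array.

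Stac2 had a scaled signal of 270.7 with valproate, 55.2 with DMSO and 39.0 with lamotrigine. Its DMSO signal was 37.1 times the 95th percentile of the negative controls, so the gene was clearly detected without valproate. The valproate to DMSO difference was 2.30 (technical SD 0.10), or 4.91-fold, rank 14. Stac2 was dimmer with lamotrigine than with DMSO (log2 difference -0.50, technical SD 0.12, rank 14160 of 14340). This difference kept its sign in each of the 6 other scalings and sources of values tried, between -0.30 (spike-in scaling) and -0.51.

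Mrap2 probe A_55_P2105135 had a scaled signal of 87.4 with valproate, 17.4 with DMSO and 21.8 with lamotrigine. The valproate to DMSO difference was 2.33 (technical SD 0.20), 5.02-fold, rank 11. Probe A_55_P2105140 read 24.1, 5.25 and 7.23 in the same order and was not above background with DMSO, which makes its difference a bound of 2.18 (at least 4.55-fold). The most upstream probe, A_55_P2143296, was not well above background on any array (3.34 with valproate, 4.301 with DMSO and 1.60 with lamotrigine) and gives no difference. The higher signal of Mrap2 with valproate therefore rests on the 2 probes nearer the 3′ end.

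Nxnl2, the photoreceptor gene, had a scaled signal of 69.4 with valproate, 13.7 with DMSO and 13.8 with lamotrigine. The lamotrigine and DMSO signals differed by only 0.01 on the log2 scale (technical SD 0.26), while valproate minus DMSO was 2.34 (technical SD 0.20), 5.06-fold, rank 10.

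Of the genes known from epithelium and matrix, Aqp5 probe A_55_P1990121 had a scaled signal of 36.4 with valproate, 7.10 with DMSO and, not above background, 4.71 with lamotrigine. The valproate to DMSO difference was 2.36 (technical SD 0.20), 5.12-fold, rank 8, and against lamotrigine the signal was at least 7.73-fold higher. The other probe, A_55_P2071236, had 10.3 with valproate and was not above background with DMSO (5.20) or lamotrigine (2.21). Its bound against DMSO was 0.96, or at least 1.95-fold, so the 2 probes share the direction, while the second does not reach 2-fold as a bound.

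Emilin2 had a scaled signal of 211.7 with valproate, 42.5 with DMSO and 48.5 with lamotrigine. It was detected on all 3 arrays, its DMSO signal being 28.6 times the 95th percentile of the negative controls. Valproate minus DMSO was 2.32 (technical SD 0.10), 4.98-fold, rank 13, and lamotrigine minus DMSO was 0.19 (technical SD 0.12).

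The lamotrigine array was not used to choose the genes, although each comparison with it shares an array with the contrast that did. Between lamotrigine and DMSO, 7 genes gave a value, 6 as a measured difference and Aqp5 as an upper bound of -0.59. None of the 7 values was past 2-fold in either direction, although the bound does not say how far below DMSO Aqp5 was. Of all genes detected on both of these arrays, 0.0976% (14 of 14340) were past 2-fold on the higher side and 0.0628% on the lower. The median of the 7 was 0.19. Between valproate and lamotrigine all 8 genes were at least 2-fold higher, 6 as a measured difference and Aqp5 and Ppm1j as bounds. Of all genes detected on both of these arrays 2.06% (300 of 14544) were, and of all genes with a bound 19.4% of 551. These differences ran from 2.00 (Mrap2, 4.01-fold) to the bound of Ppm1j, with a median of 2.56. Among genes detected on both arrays Tcfl5 ranked 2 with 2.92 and Stac2 ranked 3 with 2.79.

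**Figure D2:**
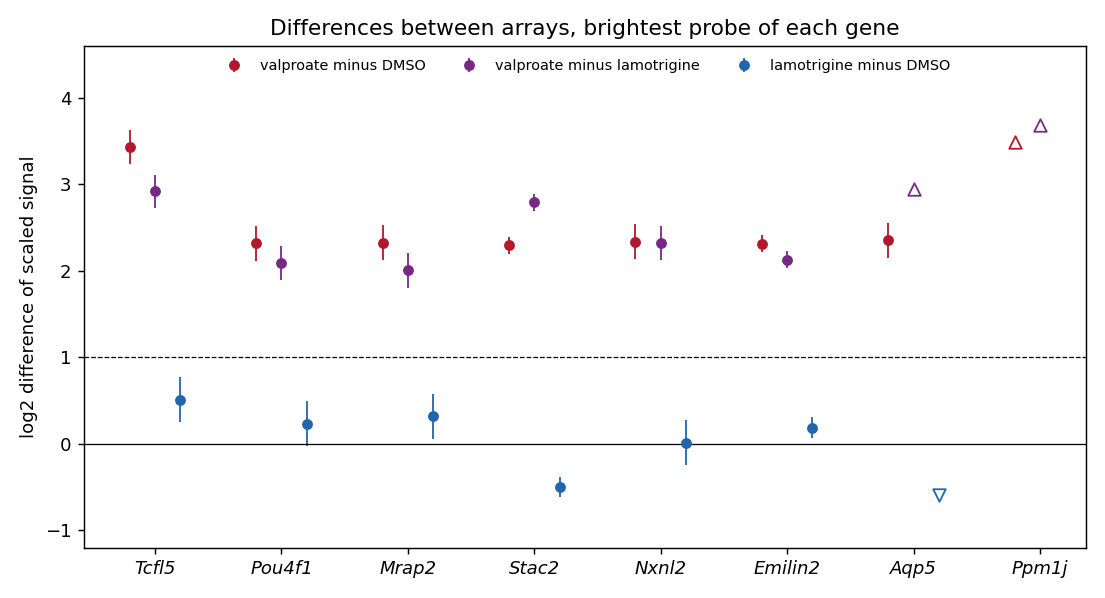
Log2 differences between arrays for the brightest probe of each of the 8 genes. Circles are differences between detected signals with the technical SD, upward triangles lower bounds and the downward triangle an upper bound; the dashed line is 2-fold. Differences that include valproate lie at 2.00 or above, and lamotrigine minus DMSO lies between -0.59 and 0.51, with no value for Ppm1j.

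The size of the differences depended on how background was treated. With normexp background correction and an offset of 50, which raises low signals, the log2 differences were 2.21 for Tcfl5, 2.00 for Stac2, 1.84 for Emilin2, a bound of 1.75 for Ppm1j, 1.47 for Nxnl2 and 1.30 for Mrap2. Aqp5 (0.995) and Pou4f1 (0.87) then fell under 2-fold, which leaves 6 of 8 genes. In the comparison with lamotrigine this setting left 7 of 8 genes, Pou4f1 being the one under 2-fold (0.98). Scaling on spike-in controls raised the median difference of all genes by 0.34, and the genes by about as much. No setting reversed a difference between valproate and DMSO or between valproate and lamotrigine. Of the differences between lamotrigine and DMSO, that of Pou4f1 was -0.11 with normexp correction, and that of Nxnl2 was -0.05 with quantile normalization and -0.03 with normexp correction, so neither has a settled sign.

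**Figure D3:**
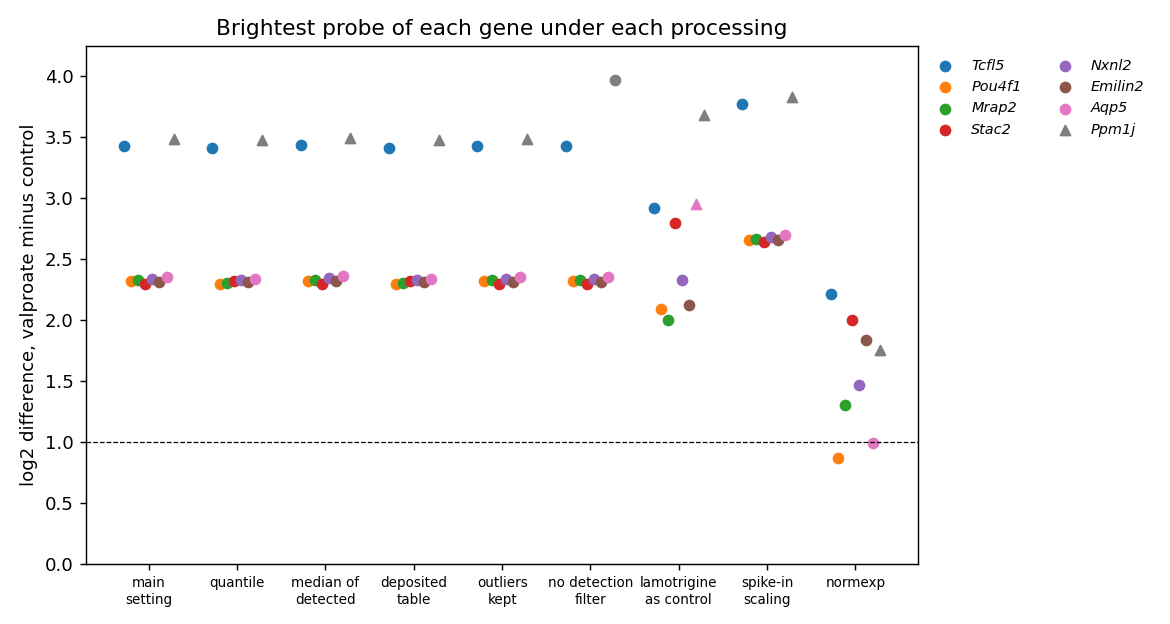
Log2 difference of the brightest probe of each gene between valproate and its control under 9 ways of processing. Circles are differences between detected signals (or, with no detection filter, the measured signals), triangles lower bounds, and the dashed line is 2-fold; with normexp correction Pou4f1 (0.87) and Aqp5 (0.995) lie under it.

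The signal of a gene over the 3 arrays was set beside that of each other gene detected on all 3, 14248 genes in all. Likeness was the distance between log2 levels after the mean over the arrays was subtracted, which rests on 3 values per gene. Since the 8 genes were chosen for the difference that weighs most in this distance, their nearness to each other follows from the choice. The nearest gene was Card10 for Pou4f1 (distance 0.028), Klk8 for Mrap2 (0.028), Slc16a3 for Stac2 (0.029) and Slc39a8 for Nxnl2 (0.078). Emilin2 lay nearest to Pou4f1 (0.035) and Tcfl5 nearest to H2-Ab1 (0.30), an MHC class II gene. Aqp5 and Ppm1j were themselves not detected on all 3 arrays, so no likeness is given for them.

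Relatives of the 8 genes were compared in the same way, from lists of their families. On the array were 53 relatives, 35 of them were measured, and none of the 35 was at least 2-fold higher with valproate than with DMSO, while 1, Aqp4, was at least 2-fold lower. Over all genes the shares were 2.11% on the higher side and 1.42% (203 of 14346) on the lower, so both counts are near the shares of all genes. Emilin3 (bound 0.92) came nearest, and with spike-in scaling it passes 2-fold. Medians of lists are read beside the median of -0.08 over all genes, and since spike-in scaling moves them by about 0.34, medians near 0 have no settled sign.

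Of 7 other bHLH genes, germ line factors and their partners among them, 4 were measured, with a median difference of -0.09. The partners Tcf3 (-0.00), Tcf4 (-0.18) and Tcf12 (-0.28) were detected on both arrays, and the germ cell factors Sohlh1 and Figla on none. The germ cell factor Sohlh2 was detected with valproate (4.94) and lamotrigine (6.80) but not with DMSO (4.88), which leaves a bound of 0. Of 13 other POU genes, 7 were measured, with a median of -0.08. Pou4f2 and Pou4f3, the nearest relatives of Pou4f1, were not above background on any array, while Pou3f1, a factor of cortical neurons, had 487 with valproate and 423 with DMSO (log2 0.20). Pou6f1 had a log2 difference of -0.63.

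The single relative of Mrap2, Mrap, was not detected with valproate or DMSO. The adaptors most like Stac2 differed little: Stac had 83.8 with valproate, 75.1 with DMSO and 58.3 with lamotrigine (log2 valproate minus DMSO 0.16), and Stac3 had -0.18. Nxnl1, the other photoreceptor-linked nucleoredoxin-like gene, had 20.8 with valproate, 33.0 with DMSO and 26.6 with lamotrigine, a log2 difference of -0.66, opposite in sign to Nxnl2. Among the EMI-domain genes, Emilin1 had -0.81 and Mmrn2 -0.22, the latter within the shift that spike-in scaling makes.

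Of 11 other aquaporins, 4 were measured. Aqp4, the water channel of astrocytes, had 797 with valproate, 2448 with DMSO and 2723 with lamotrigine, a log2 difference of -1.62, so the signals of Aqp4 and Aqp5 lay on opposite sides of DMSO. Aqp11 (0.44) and Aqp1 (0.27) were under 2-fold. All 13 other PP2C phosphatases were measured, and their differences ran only from -0.39 (Ilkap) to 0.41 (Ppm1k). Ppm1h (0.04) and Ppm1m (0.22), the closest relatives of Ppm1j, lay within that range.

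**Figure D4:**
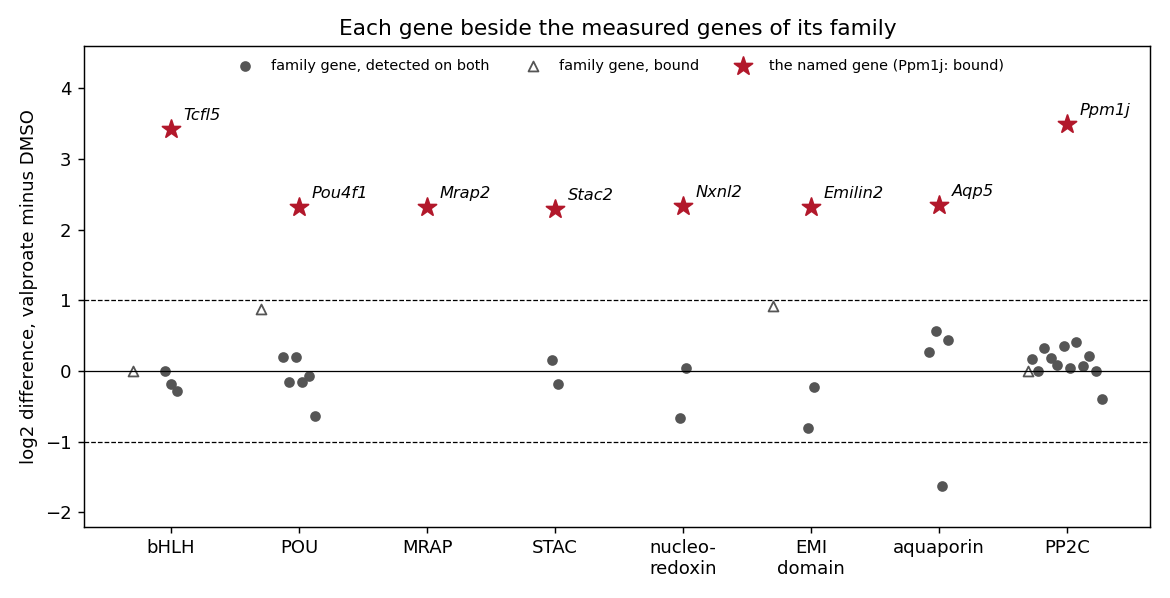
Log2 difference between valproate and DMSO of each of the 8 genes (stars; Ppm1j is a bound) beside the 35 measured relatives of their families. Filled circles are relatives detected on both arrays, open triangles relatives with a lower bound, and dashed lines 2-fold in either direction; no relative lies above the upper line, and Aqp4 (-1.62) lies below the lower one.

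Partners of the proteins were examined by function. Mrap2 modifies signalling of the melanocortin-4 receptor and of prokineticin receptors. Mc4r itself had 55.3 with valproate, 27.6 with DMSO and 19.9 with lamotrigine, so the valproate signal was the highest, with a log2 difference from DMSO of 1.00. It was the only 1 of 5 measured genes of that system past 2-fold, against 2.11% of all genes detected on both arrays. With normexp correction Mc4r was under 2-fold. Pomc (0.03), Agrp (-0.33), Prokr2 (0.30) and Prokr1 (bound 0.58) were under it.

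Stac proteins bind L-type calcium channels. None of 10 measured channel subunits was 2-fold apart, and their median was 0.04. The pore subunits of neurons, Cacna1c (-0.22) and Cacna1d (0.02), differed less than Cacna1s of skeletal muscle (-0.55), and the auxiliary subunit Cacna2d2 had 0.87. The 5 measured transcription factors of spermatocytes had a median of -0.08, with Rfx2 at -0.40, Mybl1 at -0.29 and Crem, a switch of the post-meiotic programme, at 0.06.

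Of 14 genes of elastic fibres and microfibrils, the structures with which Emilin proteins associate, all were measured. Of these, 1 was at least 2-fold higher, against 2.11% of all genes detected on both arrays. That gene was Fbln2 (log2 1.07), with 181 on the valproate, 86.4 on the DMSO and 105 on the lamotrigine array. With normexp correction it was under 2-fold. Ltbp1 (0.78) and Fbln1 (0.76) were next, while Mfap4 (-0.84) was on the lower side, and the list median was -0.23. The 14 genes of class I HDACs and their corepressors were all measured and none was 2-fold apart (median 0.07). Rest had 0.62, Sin3a 0.45, Hdac2 0.35, Hdac1 0.25 and Hdac3 -0.32.

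Markers of the tissues in which the 8 genes are known were mostly not detected. Of 20 testis germ cell markers, 18 were not above background on any array, among them the meiotic genes Sycp1, Sycp3, Dmc1, Spo11 and Stra8 and the sperm chromatin genes Prm1 and Tnp1. Ddx4, the germ cell RNA helicase, had 8.62 with valproate and was undetected with DMSO (bound 0.70), and Acr had -0.35. The summed scaled signal of the 20 genes was 49.2 with valproate, 45.9 with DMSO and 51.3 with lamotrigine. On the array where Tcfl5 and Ppm1j were higher, Ddx4 and Acr were thus the detected genes of this list, and the other 18 were at background.

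Of 15 sensory ganglion markers, 6 were measured, with a median of 0.62. Of these, 2 were at least 2-fold higher, against 2.11% of all genes detected on both arrays and 14.6% of genes with a bound. Ret, the receptor subunit for glial-derived neurotrophic factors, had 23.0 with valproate, 7.96 with DMSO and 8.16 with lamotrigine (log2 1.53). Prph, the intermediate filament peripherin, had 137, 65.2 and 63.9 in that order (1.07). Scn11a had 0.84 and Calca 0.39. With normexp correction none of the list was 2-fold higher and its median was 0.22. The other 9, among them Isl1, Runx1, Runx3, Prdm12, Avil and Trpv1, were not above background on any array. The summed signal of the list was 303 with valproate, 204 with DMSO and 201 with lamotrigine, and without Prph it was 166, 139 and 137. It was higher with valproate, as Pou4f1 was, and its part in the result was not tested. Of 6 habenula markers, Tac1 (0.54), Chrnb4 (0.48) and Nr4a2 (0.23) were measured, and Gpr151, Chrna3 and Chrnb3 were not detected.

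Of 16 photoreceptor markers, 4 were measured, and Crx, Nrl and Pde6b were among those not detected with valproate or DMSO. Guca1a, a calcium sensor of photoreceptor guanylate cyclase, had 19.0 with valproate and was not above background with DMSO (3.17) or lamotrigine (1.24), a bound of 1.84 that fell under 2-fold with normexp correction. Rom1, a disc membrane protein, had 159.3, 159.0 and 154.3, a difference of 0.00. Of 20 markers of glands and lung epithelium, 14, among them Epcam, Cdh1 and the surfactant genes, were not above background on any array. None of the 6 measured was 2-fold apart (Ano1 0.69, Krt18 0.22, Amy1 -0.41). Of 7 adrenal cortex markers, 5 were undetected on every array, Star and Cyp11a1 included. Nr5a1 (0.04) and Cyp21a1 (-0.48) were detected on all 3 arrays.

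The labels describe the samples as primary cerebral cells, and markers of neurons (15 of 15), astrocytes (10 of 10) and the oligodendrocyte lineage (10 of 10) were measured. So were 8 of 9 markers of fibroblasts and mural cells, the brightest being Acta2, with 2657 on the valproate and 3276 on the DMSO array. Microglia and endothelial cells were less evident, with Cx3cr1, P2ry12, Ptprc, Cldn5 and Tek not above background on any array. In bulk RNA, fewer cells of a type and less RNA per cell cannot be told apart. Astrocyte markers had a median of -0.49, 2 of 10 at least 2-fold lower, against 1.42% of all genes, and a summed signal of 22290 with valproate and 42550 with DMSO. Aldoc, the brightest of them, had 10100 and 26050, and without it the sums were 12190 and 16500. Ependymal markers had a median of -0.82, 3 of 7 measured at least 2-fold lower, and sums of 1122 and 2136. Neuronal markers had a median of -0.28, none of 15 past 2-fold, and sums of 29230 and 38300. Fibroblast and mural markers had a median of -0.32, none of 8 measured past 2-fold, and sums of 9173 and 11870. With spike-in scaling the medians were -0.15 for astrocytes and -0.48 for ependymal cells. That of neurons was then 0.06 and that of fibroblasts and mural cells 0.03, so neither of these has a settled sign. The part of these markers in the results was not tested. The endothelial receptor Flt1 had 27.4 with valproate and was undetected with DMSO (bound 2.37), while Cdh5, the endothelial cadherin, had -0.45.

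The genes around each of the 8 were compared from probe positions in the files, within 200 kb on either side. The 8 windows held 49 other genes, of which 40 were measured, 38 of them as genes detected on both arrays. With valproate 2 were at least 2-fold higher and none at least 2-fold lower. Over all genes detected on both arrays the shares were 2.11% and 1.42%, and 14.6% of genes with a bound were higher. Nothing is read from a count of 2. Both higher genes, Arl5c (1.63, at a distance of 47.0 kb) and Plxdc1 (1.42, at 113 kb), lie near Stac2 and are named here because their values stood out. Genes between them and Stac2 did not share the difference, since Rpl19, a ribosomal protein gene 7.70 kb from the Stac2 probe, had -0.12. Fbxl20, on the other side, had -0.23.

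Near the other 7 genes, neighbours were under 2-fold or not detected. Next to Tcfl5, Col9a3 (7.53 kb) had a bound of 0.60 and Dido1 (29.4 kb) had -0.29. Next to Pou4f1, Obi1 (14.5 kb) had 0.10 and D130079A08Rik (15.1 kb) was not detected. Mrap2 lies between Cep162 (8.67 kb, 0.22) and Cyb5r4 (106.7 kb, -0.09). Spin1, 22.6 kb from Nxnl2, had -0.36. Lpin2, 4.70 kb from Emilin2, had 0.46, and Rhoc, 8.96 kb from Ppm1j, had 0.16.

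Aqp5 lies in a cluster of aquaporin genes. Aqp2, the collecting duct water channel 12.1 kb away, had 11.2 with valproate, 7.54 with DMSO and 4.95, not above background, with lamotrigine, a valproate to DMSO difference of 0.57. Aqp6, 10.71 kb away on the other side, was not detected on any array. Between valproate and DMSO the higher signal of Aqp5 was thus not shared at 2-fold by Aqp2, and Aqp6 gave no difference to compare. Against lamotrigine, Aqp2 was higher with valproate by a bound of 1.18.

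**Figure D5:**
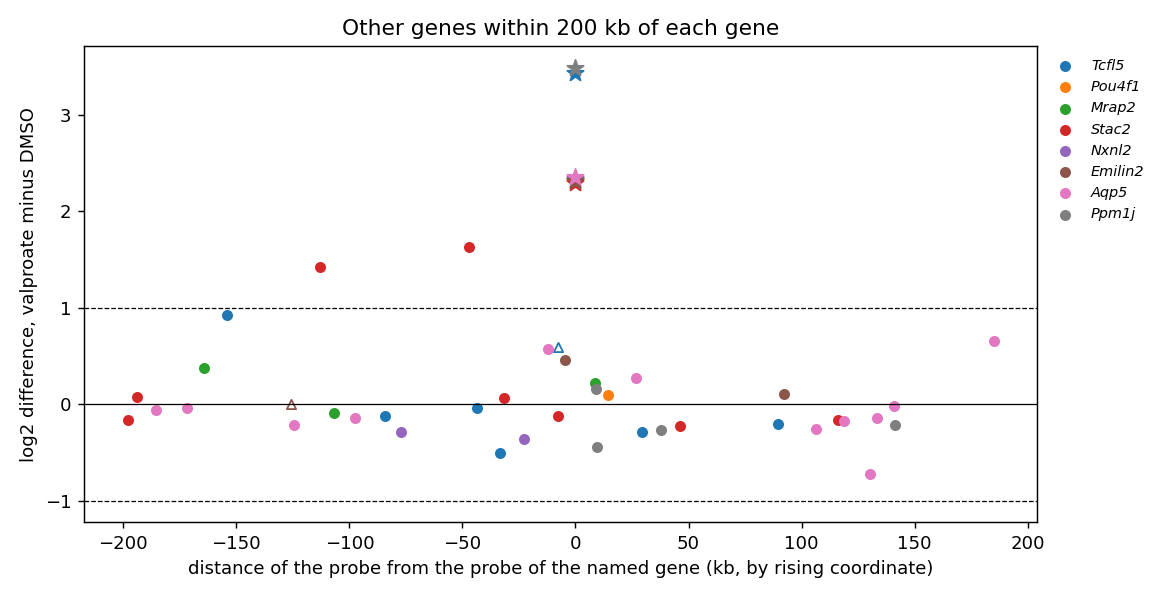
Log2 difference between valproate and DMSO of the 40 measured genes within 200 kb of the 8 genes, by distance from the probe of the named gene (kb). Colours give the window, stars the 8 genes themselves, filled circles neighbours detected on both arrays and open triangles bounds; dashed lines are 2-fold. Only Arl5c (1.63) and Plxdc1 (1.42), both in the Stac2 window, lie above the upper line.

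Promoter sequences of RefSeq on the GRCm38.p6 build were available for 7 of the 8 genes, in 8 promoters of which Emilin2 has 2. Stac2 had no entry. In windows from 250 bases before to 50 after the start site, GC content ran from 48.3% (1 Emilin2 promoter) to 79.7% (Aqp5), against a median of 52.7% over all promoters in the table. The Pou4f1 window held 57 CpG dinucleotides, percentile 99.9 of all promoters, the Aqp5 window 46 and the Tcfl5 window 35, against a median of 7. The Nxnl2 window held 14, the Ppm1j window 18, the Mrap2 window 24 and the Emilin2 windows 7 and 21.

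Simple motifs were searched on both strands in the same windows. The GC box GGGCGG, which Sp-family factors can bind, was in 6 of the 8 promoters and in 35.7% of all promoters. The CCAAT box (CCAAT) was in none of the 8 and in 37.4% of all, and TATAAA in none and in 13.6%. The E-box CACGTG was in 1, that of Aqp5, and in 7.15% of all. The cyclic AMP response element TGACGTCA (1.79% of all) and TTCAGCACC, the first letters of the site of Rest (0.371% of all), were in none of the 8. The GC box is itself made of G and C, so its share moves with GC content, and motifs with no match say only that these letters are absent from these windows.

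The 250 bases upstream of the start are shown for 4 genes, in capitals where a GC box (on either strand) or the E-box of Aqp5 stands. Tcfl5 and Ppm1j are shown as the genes with the highest differences. Pou4f1 and Aqp5 are shown for their CpG content. The upstream stretches lie at chr2:180642692-180642941 (Tcfl5, minus strand), chr3:104780806-104781055 (Ppm1j, plus strand), chr14:104468000-104468249 (Pou4f1, minus strand) and chr15:99590778-99591027 (Aqp5, plus strand).
Tcfl5: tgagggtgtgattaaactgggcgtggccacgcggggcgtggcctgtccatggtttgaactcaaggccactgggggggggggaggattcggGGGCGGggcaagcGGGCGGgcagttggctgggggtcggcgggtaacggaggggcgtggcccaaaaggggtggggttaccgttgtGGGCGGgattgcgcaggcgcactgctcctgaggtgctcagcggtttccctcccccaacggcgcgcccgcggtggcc
Ppm1j: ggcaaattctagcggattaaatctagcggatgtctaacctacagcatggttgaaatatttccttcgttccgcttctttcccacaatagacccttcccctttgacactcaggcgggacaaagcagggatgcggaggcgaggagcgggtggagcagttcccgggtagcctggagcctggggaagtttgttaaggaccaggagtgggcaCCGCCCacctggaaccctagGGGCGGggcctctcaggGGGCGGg
Pou4f1: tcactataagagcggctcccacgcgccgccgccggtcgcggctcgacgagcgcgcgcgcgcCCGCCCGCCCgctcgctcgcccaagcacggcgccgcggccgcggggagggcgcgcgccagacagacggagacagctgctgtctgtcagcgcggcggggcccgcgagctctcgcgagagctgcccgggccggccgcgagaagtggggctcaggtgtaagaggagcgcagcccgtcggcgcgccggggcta
Aqp5: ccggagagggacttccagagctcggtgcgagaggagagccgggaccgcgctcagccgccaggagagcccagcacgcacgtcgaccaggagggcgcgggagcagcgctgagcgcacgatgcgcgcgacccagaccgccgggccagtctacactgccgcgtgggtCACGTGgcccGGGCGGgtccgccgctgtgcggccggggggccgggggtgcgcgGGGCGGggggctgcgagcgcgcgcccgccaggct
The Tcfl5 and Ppm1j stretches each hold 3 GC boxes, and in Ppm1j they stand within 44 bases of the start, while in Pou4f1 both overlap each other 185 to 189 bases before it. No binding or acetylation was measured at these promoters.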

How the data were processed

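Per the labels' protocols, total RNA was extracted with TRIzol, labelled with Cy3 by the Low Input Quick Amp kit and hybridised to 1-colour Agilent arrays. Per the file headers, spot intensity was read with Feature Extraction 10.7.1.1 and probes were placed on the mm9 build. The processed intensity in the authors' deposited scanner files is background-subtracted and not normalized between arrays. The authors also deposited a quantile-normalized intensity table, used as an alternative.

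Levels were log2 of the processed signal minus log2 of the array's 75th percentile, outlier spots left out. The brightest probe stood for each of the 22328 genes. RefSeq accessions joined 27235 probes to genes, current symbols 3581 and older symbols 565. Nothing was tested, since each treatment has 1 array, and counts past 2-fold describe these arrays. The 8 genes and the 26 gene lists were chosen with earlier results of these data known. All members are named. In lists of tissues and cells, up to 4 genes farthest from 0 or brightest were named, and beside them undetected markers chosen after their values were seen. Alternatives were centring on the median of detected probes, quantile normalization, spike-in scaling (6 probes), normexp correction (limma 3.58.1 under R 4.3.3), the deposited table, outliers kept, the mean of detected probes, no detection filter, a 3-fold threshold and lamotrigine as the control. The script for differences was tested on simulated data. Some genes of the lists are counted but not reported singly here.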

Additional observations from a re-analysis of the deposited data

How the results depend on the processing

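The 8 genes stayed at least 2-fold higher with valproate than with DMSO under each alternative except normexp correction, which left 6. None of the 10 probes with a difference between valproate and DMSO changed direction under any alternative tried. Over those probes the differences ran from 0.09 to 2.21 with normexp correction, from 1.30 to 3.83 with spike-in scaling and from 0.95 to 3.48 with the authors' deposited table. With no detection filter Ppm1j had 3.97 in place of its bound of 3.49.

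Counts over all genes moved more. Genes at least 2-fold higher with valproate than with DMSO numbered 302, and 733 with spike-in scaling, 111 with normexp correction, 864 with no detection filter and 75 at a 3-fold threshold. Genes of the lists at least 2-fold higher numbered 6, and 14 with spike-in scaling and 1 (Flt1) with normexp correction. Neighbours and promoters were examined under the main settings only. Spike-in scaling shifts all differences alike, and the offset of normexp draws low signals together.

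With 1 array per treatment, culture, drug and position on the slide cannot be told apart. Signals near the floor limit what can be read: the DMSO signals of Pou4f1 and the brighter Aqp5 probe lay below the highest negative-control spot. No paired analysis was possible because each treatment has 1 array.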
